A study of Drosophila melanogaster with 6 samples.

Results

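The genes that encode the proteins of the mitochondrial ribosome were followed in Drosophila melanogaster leg discs across the larva-to-pupa transition. Members were chosen by symbol alone: every gene whose symbol begins with mRpL (large subunit) or mRpS (small subunit). This gave 73 genes, 47 mRpL and 26 mRpS, of 15259 genes that could be matched to the deposited transcripts. Imaginal leg discs, the larval epithelia that form the adult legs, were taken from animals of genotype white [1118] in the wandering larva (wL3, 3 libraries) and at 2 h after pupal formation (2h APF, 3 libraries). Both groups carry the same allele, and nothing in the labels separates them but stage. PolyA RNA was made into strand-specific libraries, so every value below is an RNA level of a whole disc, in which fewer cells of a type and less RNA per cell cannot be told apart.

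Mitochondria keep a small genome of their own, and its protein-coding genes are translated inside the organelle by a dedicated ribosome. The ribosomal RNAs of this particle come from mitochondrial DNA, whereas all of its proteins are encoded in the nucleus, made in the cytosol and imported. Part of these proteins descend from the ribosome of the bacterial ancestor, and others were added in the mitochondrial lineage. The products of mitochondrial translation are core subunits of the respiratory chain and ATP synthase.

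The 6 libraries held between 24395318 and 33373176 estimated counts. The number of animals or discs pooled per library is not given in the sources used here, and nothing states that the libraries are separate cultures, so p-values measure the spread between these samples. With 3 libraries against 3, a two-sided exact permutation test cannot go below 0.1, so calls rest on edgeR's quasi-likelihood test over all 8936 genes left after those with low counts were removed. Genes were called where the Benjamini-Hochberg adjusted p was under 0.05. CPM below is the count scaled to library size by edgeR (TMM). TPM, which also corrects for transcript length, is the only unit used to compare genes with each other. All log2 fold changes are 2h APF over wL3.

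Leg identity was plain in all libraries, with a list of 14 leg disc genes (Dll, dac, Antp and others) summing to 2638 to 2664 CPM at wL3 and 2449 to 2517 CPM at 2h APF. Of these 14, 7 were called lower and 3 higher. Other cell types also moved with stage. Hemocyte markers summed to 193 to 345 CPM at wL3 and 83.2 to 103 CPM at 2h APF, with 5 of 6 lower. Salivary gland glue genes summed to 50.99 to 195 CPM and then 0.176 to 0.272 CPM, with 5 of 5 tested lower. These 5 passed the removal of low counts only through wL3. Myoblast markers went the other way, from 243 to 255 CPM up to 315 to 346 CPM, with 4 of 5 higher. Muscle markers summed to 835 to 1049 CPM at wL3 and 904 to 931 CPM at 2h APF, with 7 of 9 lower. Most of that sum was Tm1 (754 to 787 CPM, then 861 to 889 CPM), which rose (0.18), while Mhc went from 1.66, 36.3 and 36.1 CPM to 0.131, 0.116 and 0.176 CPM and Tm2 was at 0 in every 2h APF library. Fat body markers varied most between libraries of 1 stage, from 35.4 CPM in wL3 replicate 1 to 3719 CPM in wL3 replicate 2, and lay between 195 and 876 CPM at 2h APF, with 2 of 6 lower. The part of these cells in the results below was not tested.

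Most mitochondrial ribosomal protein genes were slightly lower at 2h APF. Of 47 mRpL genes, 27 were called lower, 3 higher and 17 neither, with a median log2 fold change of -0.20 (quartiles -0.28 and -0.12), which is a ratio of 0.869. Of 26 mRpS genes, 12 were called lower, 1 higher and 13 neither, with a median of -0.15 (quartiles -0.27 and -0.08), a ratio of 0.9. Over all genes tested, 36.9% were called lower and 30.6% higher, and the median was -0.04 with quartiles of -0.40 and 0.38. Against this background 57.4% of mRpL and 46.2% of mRpS genes were called lower, and 6.38% and 3.85% higher. With DESeq2 the shares called lower were 36.2% of mRpL and 26.9% of mRpS genes against 31.7% of all genes. In that fit the mRpS share was thus below that of all genes, and the mRpL share was only slightly above it. Whether the subunits differ from each other was not tested.

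The changes were small and narrow in range. Leaving out mRpL42, which is treated on its own below, fitted log2 fold changes of the members ran from -0.53 to 0.33, with standard errors from 0.0339 to 0.127 (median 0.0587) and counts from 187 to 2774 per library. In all, 70 of 73 members lay within 0.5 log2 units of 0. Only mRpL42 passed the threshold while changing by more than 1 log2 unit, a size reached by 18.6% of all genes tested. That gene entered the test through its wL3 counts alone. For 45 members every 2h APF library lay below every wL3 library, as for 40.0% of all genes tested, and for 4 members every 2h APF library lay above, as for 33.4%. Of the 45, 39 were the called ones and 6 missed the threshold, and no member was called while its stages overlapped.

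**Figure D1:**
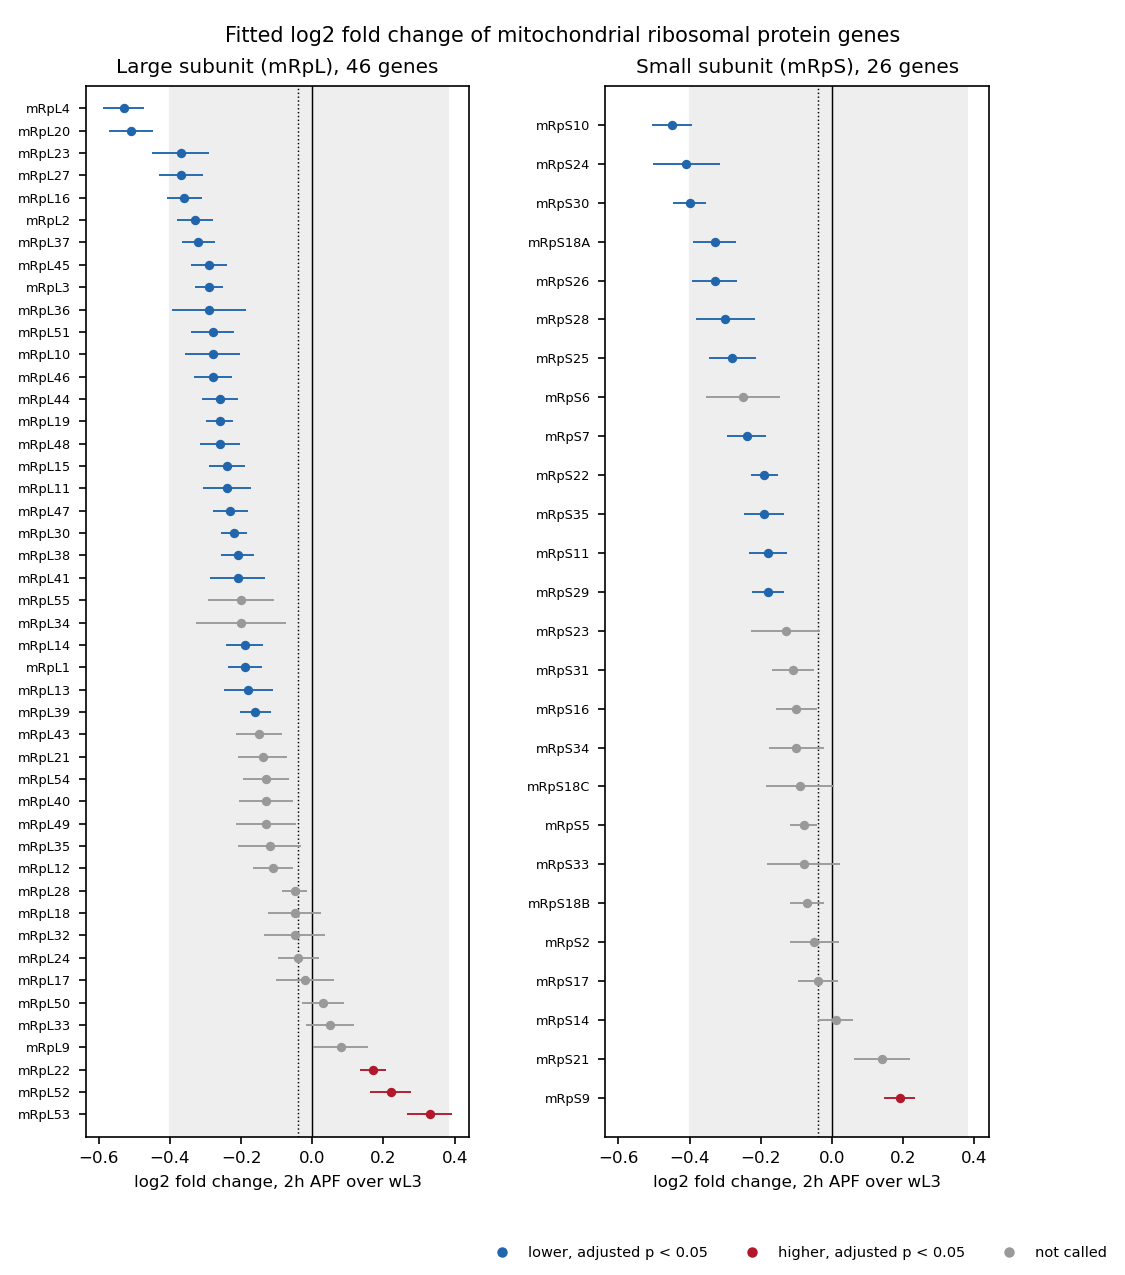
Fitted log2 fold change (2h APF over wL3, x axis) of each mRpL gene (left, 46 genes without mRpL42) and each mRpS gene (right, 26 genes), with bars of 1 standard error from 3 libraries per stage. Blue points were called lower, red higher and grey neither, the shaded band spans the quartiles of all 8936 genes tested (-0.40 and 0.38), and the dotted line is their median of -0.04. Nearly all members sit inside the band, on its lower side.

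The scale chosen for the libraries shifts all of these values together. Scaling by total library size moved the median of all genes from -0.04 to -0.16, and upper quartile scaling moved it to -0.13. Under total library size 46.0% of all genes were called lower and 24.8% higher. Members were then called lower in 53 cases and higher in 1. DESeq2, whose all-gene median was 0.00, called 24 members lower and 4 higher, and of all genes 31.7% lower and 32.4% higher. Measured from the all-gene median of each fit, the median of the members lay between -0.15 and -0.12 in all 16 fits compared here. For mRpL genes it ran from -0.19 to -0.13 and for mRpS genes from -0.12 to -0.08. Another scaling shifts members and all genes alike, so this difference cannot measure its effect, and all fits draw on the same 6 libraries. No member called here was called in the other direction by any of the fits.

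Among large subunit proteins, the steepest falls above trace level were in mRpL4 and mRpL20. mRpL4, whose bacterial counterpart lines the tunnel through which the nascent chain leaves the ribosome, is on chromosome arm 2L from 16328059 to 16329132 in the BDGP6.54 annotation. It measured 31.8, 30.5 and 29.4 CPM at wL3 and 21.9, 19.7 and 21.9 CPM at 2h APF. All 3 pupal libraries were below all larval ones, and the log2 fold change was -0.53 (SE 0.0580, adjusted p = 0.000172 by edgeR). In TPM order among all 73 members, mRpL4 moved from rank 41 to rank 60.

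mRpL20, which in bacteria binds ribosomal RNA early in large subunit assembly, is on 3L from 13017149 to 13017867. It gave 22.1, 23.2 and 21.7 CPM at wL3 and 16.7, 15.1 and 15.2 CPM at 2h APF. The stages were apart by more than their spread, with a log2 fold change of -0.51 (SE 0.0611, adjusted p = 0.000274). mRpL23, at the rim of the tunnel exit, fell from 17.4, 18.4 and 17.7 CPM to 14.1, 12.4 and 14.9 CPM (log2 fold change -0.37, SE 0.0792, adjusted p = 0.00481). mRpL27, whose bacterial counterpart reaches toward the peptidyl transferase centre, fell from 28.6, 24.8 and 26.2 CPM to 20.4, 20.2 and 21.0 CPM (log2 fold change -0.37, SE 0.0615, adjusted p = 0.00143). In none of these genes did the stages overlap.

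The remaining 22 large subunit genes called lower had log2 fold changes from -0.36 to -0.16, with a median of -0.26. They included mRpL2 (-0.33) and mRpL16 (-0.36), whose bacterial counterparts lie next to the catalytic centre, and mRpL3 (-0.29). mRpL45, which in mammals sits at the tunnel exit and holds the ribosome to the inner membrane, fell from 42.9, 42.4 and 43.8 CPM to 32.8, 36.9 and 35.9 CPM (-0.29). mRpL22, which also lines the tunnel, rose, and the exit proteins mRpL17 and mRpL24 gave -0.02 and -0.04 and were not called.

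3 large subunit genes rose. mRpL22 (X, 16783933 to 16785092) went from 40.1, 41.4 and 41.1 CPM to 44.8, 45.6 and 47.3 CPM, without overlap (log2 fold change 0.17, SE 0.0361, adjusted p = 0.00485). mRpL52 (2R, 7673721 to 7674400), a protein with no bacterial counterpart, went from 16.8, 15.5 and 16.1 CPM to 19.0, 18.0 and 19.3 CPM (log2 fold change 0.22, SE 0.0573, adjusted p = 0.0127). Both were above 0 but not called under total library size (0.06 and 0.11) or upper quartile scaling (0.08 and 0.13). mRpL52 also missed the threshold without wL3 replicate 2 (adjusted p = 0.0538).

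The largest rise, in mRpL53, cannot be given to that gene alone. mRpL53 (2R, 13954195 to 13955664) measured 13.9, 13.9 and 14.3 CPM at wL3 and 16.6, 18.6 and 17.7 CPM at 2h APF (log2 fold change 0.33, SE 0.0626, adjusted p = 0.00276). Its only transcript, 829 bases long, covers the same exons on the same strand as a transcript of CG33155, a second reading frame further along the RNA. Both transcripts received identical estimated counts in every library, for example 460.5 in wL3 replicate 1 and 381 in 2h APF replicate 1, so the reads were split evenly between them. The level of mRpL53 is thereby an underestimate of the RNA that carries its frame, and its rise is that of the shared transcript. CG33155 itself, all transcripts summed, had a log2 fold change of 0.41 (SE 0.0668, adjusted p = 0.00132). mRpL53 was the member that stayed called higher under every scaling.

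**Figure D2:**
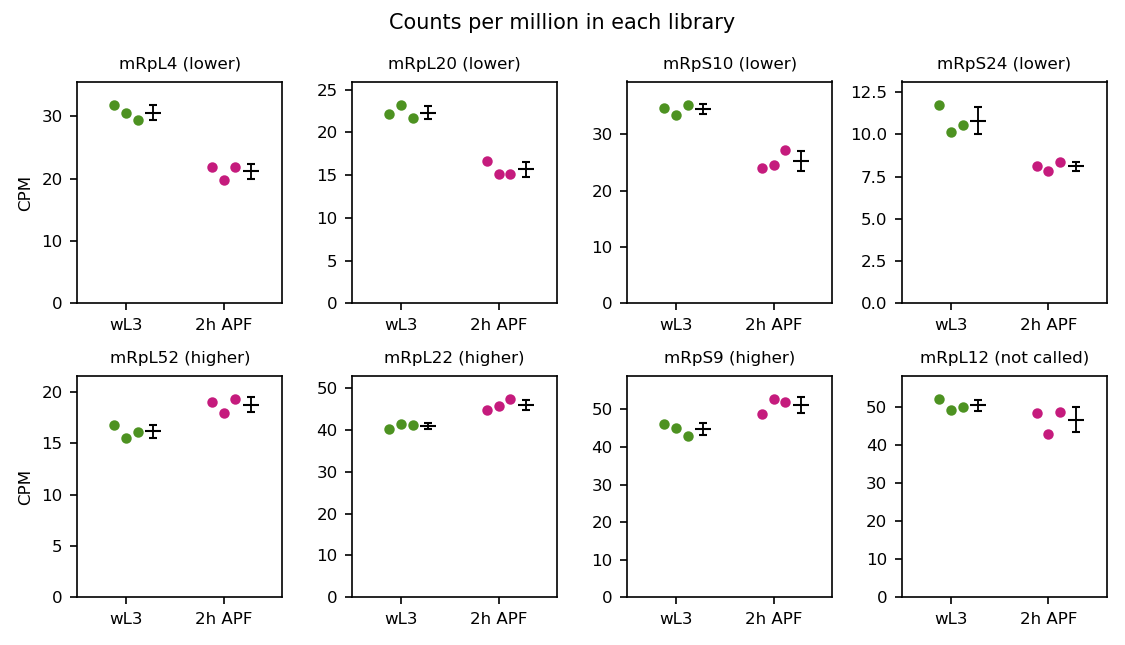
CPM (y axis, from 0) of 8 members in each of the 3 wL3 libraries (green) and 3 2h APF libraries (magenta), with the mean and SD of each stage in black. mRpL4, mRpL20, mRpS10 and mRpS24 were called lower, mRpL52, mRpL22 and mRpS9 higher, and mRpL12 neither, with 1 pupal library at 43.0 CPM and the others at 48.6 and 48.8 CPM.

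3 members belong to the stalk of the large subunit, which recruits translation factors, and differences between them were not tested. mRpL12, the stalk protein itself, measured 52.2, 49.4 and 50.05 CPM at wL3 and 48.6, 43.0 and 48.8 CPM at 2h APF. All pupal libraries were below the larval ones, but the difference missed the threshold (log2 fold change -0.11, SE 0.0566, adjusted p = 0.120). It was called lower under total library size (-0.22, adjusted p = 0.0141) and upper quartile scaling (-0.20, adjusted p = 0.0186). mRpL10, which anchors the stalk, fell from 16.7, 15.8 and 18.0 CPM to 14.2, 12.9 and 14.4 CPM (log2 fold change -0.28, SE 0.0767, adjusted p = 0.0140), a call that DESeq2 did not make (adjusted p = 0.0633). Without wL3 replicate 1 or wL3 replicate 3 its adjusted p was 0.0504 and 0.0525. mRpL11, at the stalk base, gave -0.24 (adjusted p = 0.0162), and was not called by DESeq2 (adjusted p = 0.120) or without wL3 replicate 1 (adjusted p = 0.0770).

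Per length, mRpL10 and mRpL12 were at opposite ends of the family. mRpL12 had a mean of 119 TPM at wL3 and 109 TPM at 2h APF, rank 4 of 73 at both stages, and mRpL10 had 29.7 and 24.3 TPM, ranks 69 and 72. Stalk proteins of the mRpL12 kind are present in several copies per ribosome in bacteria and mitochondria, most others in a single copy.

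mRpL42 stood apart as the only member near absence. This gene without bacterial counterpart (2R, 10066650 to 10067242) had estimated counts of 20, 14 and 13 at wL3, or 0.617, 0.491 and 0.405 CPM, and 0 in all 3 libraries at 2h APF. The next lowest member had 187 counts. With a floor of 3 counts set for each 2h APF library, the fall of mRpL42 from its mean at wL3 was 4.29-fold. This is a limit set by the chosen floor and not a measured size. That larval mean, 0.504 CPM, was taken without a margin for its own low counts. The edgeR test called the gene (adjusted p = 0.00151). It passed the removal of low counts only through wL3, where it is high, so this call is not independent support. Without mRpL42, 26 mRpL genes were called lower. All of its counts fell on 1 of its 2 transcripts, and the end of the gene shares 26 exon bases with Cdc2rk on the opposite strand, which gave -0.04 and was not called. Intervals and floors of this kind cover counting error only.

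The least changed large subunit genes by fitted value were mRpL17 (-0.02), mRpL50 (0.03) and mRpL24 (-0.04), none called. mRpL17 measured 20.6, 17.6 and 21.2 CPM at wL3 and 20.5, 18.9 and 19.3 CPM at 2h APF. mRpL33, a very short protein, gave 15, 13.9 and 13.9 CPM and then 14.7, 15.4 and 14.2 CPM (0.05, SE 0.0667). Stages overlapped in all 4 of these genes, and their signs changed between scalings or libraries left out.

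Falls in the small subunit were of similar size. mRpS10 (3R, 15229665 to 15230516), a protein of the subunit head, had the largest fall, from 34.7, 33.4 and 35.1 CPM to 24.03, 24.5 and 27.2 CPM (log2 fold change -0.45, SE 0.0570, adjusted p = 0.000387). mRpS24, in mammals the counterpart of a bacterial protein at the messenger RNA entry, fell from 11.7, 10.2 and 10.6 CPM to 8.14, 7.84 and 8.36 CPM (log2 fold change -0.41, SE 0.0941, adjusted p = 0.00639). mRpS26, found in mitochondria but not bacteria, fell from 26.3, 24.3 and 26.0 CPM to 21.9, 19.2 and 19.8 CPM (log2 fold change -0.33, SE 0.0636, adjusted p = 0.00285). Stages were separate in each.

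Of the 5 mRpS genes with the largest falls, mRpS30 and mRpS18A are named for the small subunit, although in the mammalian mitochondrial ribosome their proteins are found in the large one. mRpS30 (X, 15786047 to 15788288) fell from 74.3, 75.1 and 74.4 CPM to 55.3, 54.2 and 60.5 CPM (log2 fold change -0.40, SE 0.0471, adjusted p = 0.000264). mRpS18A fell from 22.6, 21.6 and 20.6 CPM to 18.0, 16.3 and 17.2 CPM (log2 fold change -0.33, SE 0.0609, adjusted p = 0.00237). The other genes derived from the same bacterial protein, mRpS18B and mRpS18C, gave -0.07 and -0.09 and were not called, although mRpS18B was called lower under total library size (-0.18) and upper quartile scaling (-0.15). The difference between the 3 was not tested.

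mRpS9 (3R, 7889277 to 7902667), whose bacterial counterpart reaches the transfer RNA in the ribosomal P site, was the only small subunit gene called higher. It measured 46.1, 45.1 and 43.1 CPM at wL3 and 48.9, 52.7 and 52.0 CPM at 2h APF, without overlap (log2 fold change 0.19, SE 0.0444, adjusted p = 0.00665). Its value was 0.08 under total library size and 0.11 under upper quartile scaling, neither called. The gene shares 325 exon bases with ArgRS-m, the mitochondrial arginyl-tRNA synthetase, on the opposite strand, and ArgRS-m was lower (-0.21, adjusted p = 0.0217), a call lost without wL3 replicate 2 (adjusted p = 0.0653) and in other fits.

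The least changed small subunit genes were mRpS14 (0.01), mRpS17 (-0.04) and mRpS2 (-0.05), none called. mRpS14 gave 20.7, 19.1 and 19.7 CPM at wL3 and 20.2, 19.8 and 19.9 CPM at 2h APF, which overlapped. mRpS5 measured 82.4, 85.5 and 83.7 CPM and then 76.9, 79.2 and 82.5 CPM, also overlapping (log2 fold change -0.08, SE 0.0378, adjusted p = 0.113). Summed over transcripts it had the highest TPM of the small subunit genes. Of that sum 23.6 to 30.9% came from FBtr0111144, only 425 bases long beside a coding region of 1221 bases. Its longer transcript FBtr0111146 had 72.1 to 81.3 TPM, below the mean of mRpS16 (100.7 TPM). Under total library size and upper quartile scaling mRpS5 was called lower (-0.19 and -0.16). mRpS16 gave -0.10 (adjusted p = 0.171) and mRpS31 gave -0.11 (adjusted p = 0.133), and both were called lower under those scalings. mRpS29, the GTP-binding protein known in mammals as DAP3, fell from 30.3, 31.0 and 30.7 CPM to 26.3, 26.4 and 28.3 CPM (log2 fold change -0.18, SE 0.0443, adjusted p = 0.00824), a call lost with DESeq2 (adjusted p = 0.116) and without wL3 replicate 1 (adjusted p = 0.0506).

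Some of these proteins have a bacterial counterpart and others do not. Of 29 mRpL genes with a bacterial counterpart, 17 were called lower and 1 higher, with a median of -0.20, and of 18 mRpL genes without one, 10 were called lower and 2 higher, with a median of -0.21. In the small subunit the counts were 6 lower and 1 higher of 16 with a counterpart (median -0.10), and 6 lower and 0 higher of 10 without (median -0.19). The 37.5% lower among mRpS genes with a counterpart is near the 36.9% of all genes tested. Calls came from all large chromosome arms. 7 of 11 members on X were lower, 7 of 12 on 2L, 4 of 12 on 2R, 9 of 17 on 3L and 12 of 21 on 3R, where the 33.3% on 2R is below the 36.9% of all genes tested. These shares were not tested against each other.

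Levels per length were close across the family. Without mRpL42, mRpL genes had mean levels from 27.9 to 140 TPM at wL3 (median 48.3) and from 24.3 to 141 TPM at 2h APF (median 41.3). mRpS genes ran from 29.9 to 108 TPM (median 50.5) and from 26.0 to 103 TPM (median 42.3). The highest large subunit levels were those of mRpL33 (140 and 141 TPM), mRpL30 (134 and 114 TPM) and mRpL34 (132 and 110 TPM). In the small subunit they were those of mRpS5 (108 and 103 TPM), mRpS16 (105 and 96.7 TPM) and mRpS14 (94.7 and 93.8 TPM). At the low end after mRpL42 were mRpL10 and mRpL35 (28.5 and 26.0 TPM), and mRpS29 (29.9 and 26.2 TPM), mRpS31 (31.5 and 29.1 TPM) and mRpS24 (35.0 and 26.0 TPM). mRpL33 and mRpL34 have coding regions of 192 and 243 bases, where a TPM value rests on few counting positions, and mRpL34 had the largest standard error of the family apart from mRpL42 (0.127).

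The order of the genes was largely kept from wL3 to 2h APF. Across the 72 genes other than mRpL42, Pearson's r of log2 TPM between the stages was 0.96 and Spearman's rho 0.95, and r between the wL3 level and the log2 fold change was -0.03. r between coding length and mean log2 TPM was -0.45, so shorter genes tended to higher values per length, and r between coding length and log2 fold change was -0.20. These are descriptions across genes that share the same libraries, and genes are not independent replicates.

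**Figure D3:**
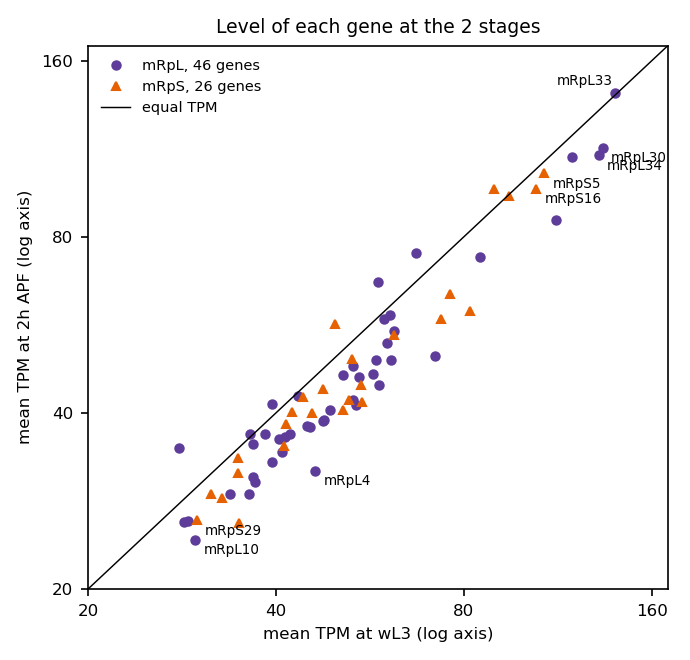
Mean TPM at wL3 (x axis) and at 2h APF (y axis) of 46 mRpL genes (circles) and 26 mRpS genes (triangles), both axes logarithmic, with the line of equal TPM. Points lie along the line and mostly under it, from mRpL10 (29.7 and 24.3 TPM) to mRpL33 (140 and 141 TPM).

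Summed over each subunit, the fall was of like size. mRpL genes summed to 1189, 1160 and 1163 CPM at wL3 and 1042, 1005 and 1056 CPM at 2h APF. These are means of 1171 ± 16.0 and 1034 ± 26.2 CPM (SD, n = 3), a change of -11.7% (-18.2% as a share of the estimated counts matched to genes). mRpS genes summed to 710, 712 and 704 CPM and then 628, 617 and 655 CPM, or 708 ± 4.36 and 633 ± 19.9 CPM (SD, n = 3). This is a change of -10.6% (-17.2% as a share of the estimated counts matched to genes). No pupal library reached a larval one in either sum. The ratio of the mRpL sum to the mRpS sum was 1.68, 1.63 and 1.65 at wL3 and 1.66, 1.63 and 1.61 at 2h APF, so that the balance between subunits overlapped between stages.

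**Figure D4:**
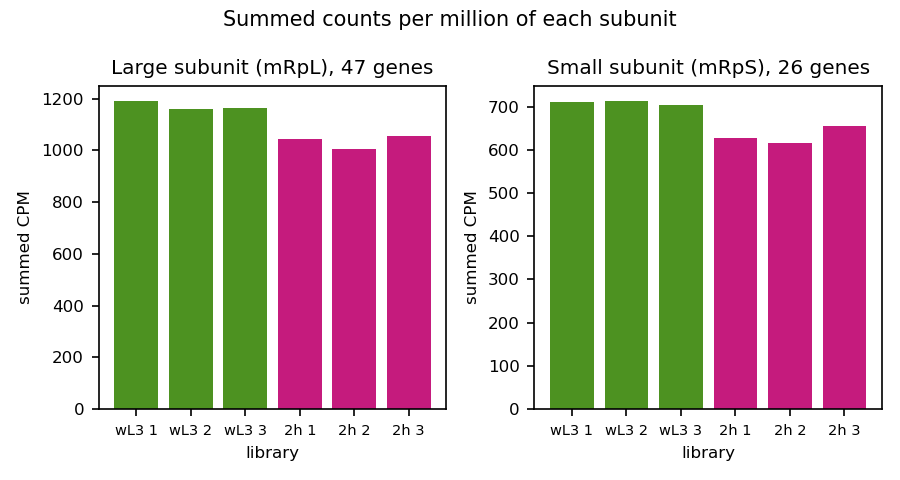
Summed CPM (y axis, from 0) of the 47 mRpL genes (left) and the 26 mRpS genes (right) in each library, wL3 in green and 2h APF ("2h") in magenta. The 3 pupal bars are below the 3 larval bars in both panels, 1005 to 1056 against 1160 to 1189 CPM and 617 to 655 against 704 to 712 CPM.

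Most of the family is simple in structure, with 60 members represented by 1 transcript and 13 by more. Shares of a gene's TPM were apart between stages in 4 of these 13, given here as a description because such shares rest on the apportioning of reads between transcripts that overlap. mRpL28 changed most while its total did not pass the test (log2 fold change -0.05, adjusted p = 0.267). Its transcript FBtr0078996 made up 52.9, 47.3 and 60.5% at wL3 and 78.6, 63.0 and 68.5% at 2h APF, and FBtr0331227 the rest. In mRpL48 the share of FBtr0077882 went from 18.8, 20.1 and 17.9% to 12.03, 10.7 and 15.5%. In mRpL14 that of FBtr0070405 went from 86.0, 83.7 and 88.3% to 82.5, 81.3 and 80.2%. The last was a transcript of mRpL23 at 0 in the larval libraries and at most 1.35% in the pupal ones.

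Many members lie close to other genes. In the annotation 43 of 73 share exon bases with another gene, 42 on the opposite strand and 3 on the same strand. The libraries were strand-specific, but how strand was used in the counting is not given in the sources used here, so reads in these overlaps may belong to either gene. Of the 30 members without any overlap, 17 were called lower and 2 higher, beside 36.9% and 30.6% of all genes tested. Besides mRpL53, the same-strand cases are mRpL13, which shares 236 bases with CG10602, and mRpS14, which shares 30 with CG32533. mRpL13 was called lower by a narrow margin (-0.18, adjusted p = 0.0482; 0.259 without wL3 replicate 1 and 0.246 with DESeq2) while CG10602 was higher (0.37, adjusted p = 9.42e-05), and mRpS14 was not called while CG32533 was lower (-0.32, adjusted p = 0.000393).

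Many of the starts lie beside that of another gene. In 51 members the start of another protein-coding gene on the opposite strand lay within 500 bases upstream, and none of those neighbours that were tested was itself a member. Of 47 such neighbours tested, 23 were called lower (48.9%, against 36.9% of all genes) and 13 higher (27.7%, against 30.6%), with a median of -0.14. Some moved with their partner, as Icmt beside mRpL20 (-1.05 and -0.51), Art3 beside mRpS10 (-1.04 and -0.45) and CG12107 beside mRpL52 (0.48 and 0.22). Others went apart from it, as CG15435 beside mRpL27 (0.42 and -0.37) and if, an integrin gene, beside mRpL22 (-0.38 and 0.17). These pairs were named after their values were seen.

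Mitochondrial ribosomal proteins with other symbols fell too. tko, the fly gene for the protein of the decoding centre that bacteria call S12, measured 25.7, 25.2 and 24.3 CPM at wL3 and 15.8, 16.2 and 16.9 CPM at 2h APF. Its log2 fold change of -0.62 (SE 0.0507, adjusted p = 4.09e-05) was a steeper fall than in any mRpL or mRpS gene but mRpL42, a difference that was not tested. bonsai, the small subunit protein S15, went from 31.2, 29.7 and 30.6 CPM to 27.4, 25.8 and 27.6 CPM (-0.18, SE 0.0450, adjusted p = 0.00986), a call lost with DESeq2 (adjusted p = 0.135) and without wL3 replicate 1 (adjusted p = 0.104). CG4866, which RefSeq gives mRpS4 as a synonym and which was added after its values were seen, gave -0.45 (SE 0.0834, adjusted p = 0.00235).

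Other genes of mitochondrial translation gave calls in both directions. Of 9 translation factors, 5 were called lower (55.6%, against 36.9% of all genes) and 1 higher (11.1%, against 30.6%), with a median of -0.21. DESeq2 called 3 lower (33.3%, against 31.7% of all genes). The elongation factor mEFG1, which moves the ribosome along the messenger, fell from 27.0, 30.6 and 29.7 CPM to 18.7, 17.3 and 18.6 CPM (log2 fold change -0.68, SE 0.0629, adjusted p = 7.63e-05). mEFTu1, which delivers aminoacyl-tRNA, fell by less (-0.18, adjusted p = 0.00228). The ribosome recycling factor mRRF1 rose, from 6.72, 6.40 and 6.49 CPM to 9.97, 8.88 and 9.17 CPM (log2 fold change 0.51, SE 0.101, adjusted p = 0.00322). Of 15 mitochondrial aminoacyl-tRNA synthetases, 8 were lower (53.3%, against 36.9% of all genes), AlaRS-m (-0.60) and AspRS-m (-0.50) among them, with a median of -0.21. DESeq2 called 6 lower (40.0%, against 31.7% of all genes). Only 1 synthetase, PheRS-m, was higher (0.25, adjusted p = 0.00864, and 0.14 without a call under total library size).

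Genes that replicate, transcribe and process mitochondrial DNA and RNA were lower in all 14 tested, with a median of -0.40, against 36.9% of all genes. The count was 10 with DESeq2 (71.4%, against 31.7% of all genes) and 9 without wL3 replicate 1 (64.3%, against 33.2%), none higher in either. All list counts given here under other settings were computed after the data were seen. The replicative helicase mtDNA-helicase had the firmest change, from 14.2, 15.2 and 15.6 CPM to 4.31, 4.38 and 4.04 CPM (log2 fold change -1.82, SE 0.0907, adjusted p = 4.58e-06). mtSSB, the single-strand binding protein, gave 17.1, 13.8 and 5.83 CPM and then 5.003, 3.19 and 2.37 CPM (-1.81, SE 0.444, adjusted p = 0.00913), with a wide spread inside each stage. PolrMT, the mitochondrial RNA polymerase, gave -0.65 (adjusted p = 4.22e-05), and TFAM, which packages mitochondrial DNA, -0.43 (adjusted p = 0.000526).

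The transcripts of the mitochondrial genome that could be tested gave few calls. Of 38 such genes 32 had matched counts, and 11 were tested. mt:Cyt-b, mt:ND1, mt:ND4, mt:ND5 and mt:ATPase6, which encode proteins, had no matched counts. Of the 11, 2 were called lower (18.2%, against 36.9% of all genes) and 1 higher (9.09%, against 30.6%). Their median was -0.04, the same as over all genes. mt:tRNA:Arg-TCG, tested and not called, lay at 0.131 to 0.65 CPM. Under total library size 5 were lower (45.5%, against 46.0% of all genes) and 0 higher (against 24.8%). The median was then -0.15, beside -0.16 over all genes, and with DESeq2 it was 0.01, beside 0.00. The RNA of the large ribosomal subunit, mt:lrRNA, was slightly lower, at 39505, 39046 and 40959 CPM and then 37778, 35700 and 37049 CPM (log2 fold change -0.11, SE 0.0300, adjusted p = 0.0130). That call was lost when any 1 wL3 library was left out (adjusted p = 0.0765, 0.0954 and 0.0571), and polyA selection is not a quantitative measure of ribosomal RNA. mt:srRNA, from the small subunit, stood at 15.4 to 24.6 CPM and was not called. Among messengers, mt:ND2 was lower (-0.34, adjusted p = 0.00358) and mt:ND3 higher (0.18, adjusted p = 0.0159), both encoding subunits of complex I. mt:CoI, a core subunit of cytochrome c oxidase, gave 0.01 and was not called, and its sign turned with the scaling (-0.10 under total library size).

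The cytosolic ribosome had medians of like size to the mitochondrial one with more genes past the threshold. Of 52 cytosolic RpL genes tested, 50 were lower (96.2%, against 36.9% of all genes) and 1 higher (1.92%, against 30.6%), with a median of -0.21. Of 35 RpS genes 31 were lower (88.6%) and 0 higher (median -0.20). Their summed levels were 80957 ± 2293 and 69513 ± 1268 CPM for RpL, and 51335 ± 1340 and 44456 ± 757 CPM for RpS (SD, n = 3, wL3 and 2h APF), many times those of the mitochondrial sets. Nuclear genes of the respiratory chain, into which the products of the mitochondrial ribosome are built, had a direction that depended on the scaling. Of 67 tested, 25 were called higher (37.3%, against 30.6% of all genes) and 9 lower (13.4%, against 36.9%), with a median of 0.06. Under total library size 8 were higher (11.9%, against 24.8%) and 26 lower (38.8%, against 46.0%). The median was then -0.05, beside -0.16 over all genes. Under upper quartile scaling 12 were higher (17.9%, against 26.1%) and 21 lower (31.3%, against 44.3%), with a median of -0.03 beside -0.13. Without wL3 replicate 1, 33 were higher (49.3%, against 31.2%) and 4 lower (5.97%, against 33.2%). No difference between these lists was tested, and all are values of the same 6 libraries.

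**Figure D5:**
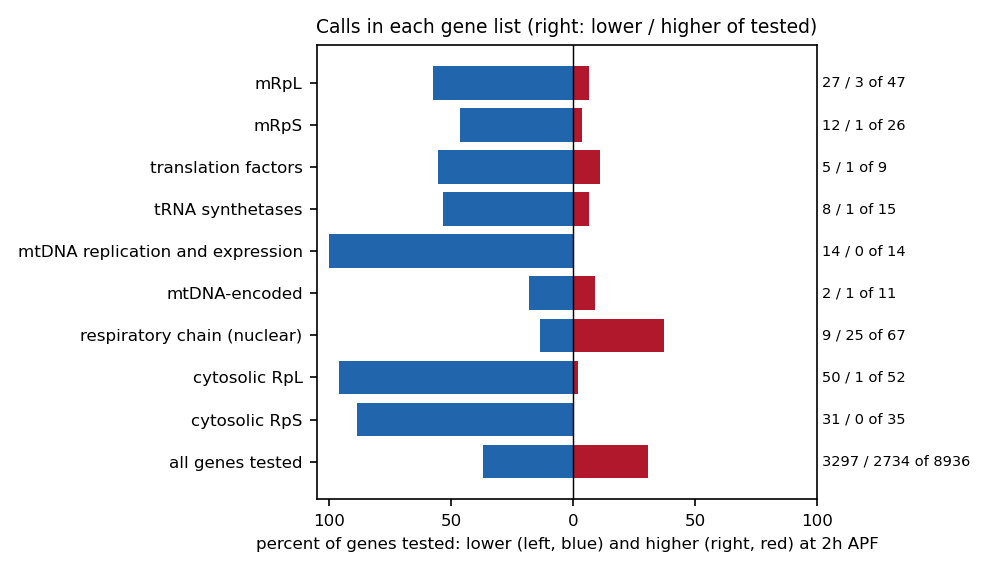
Percent of the genes tested in each list that were called lower (blue, to the left) or higher (red, to the right) at 2h APF, with the counts at the right edge. The mRpL and mRpS bars (57.4% and 46.2% lower) lie between those of all genes tested (36.9% lower) and those of the cytosolic ribosome, an order that DESeq2 did not keep (26.9% of mRpS and 31.7% of all genes lower). The respiratory chain is the only list shown with more genes higher (25 of 67) than lower (9). Under total library size these were 8 and 26, where 24.8% of all genes were higher and 46.0% lower.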

How the data were processed

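RNA levels of leg discs at wL3 and 2h APF were read from 1 table per library. The authors quantified reads with kallisto, and the submitters' processing notes also name sleuth and build dm3; versions are not given in the sources used here. The deposited tables give, per transcript, estimated counts (not normalised) and TPM (scaled for depth and transcript length). Positions come from the BDGP6.54 annotation.

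Of 42506 targets, 27011 were matched by FlyBase transcript number to 15259 genes, and these took 96.4 to 96.6% of counts per library. Estimated counts were summed per gene, rounded, and tested in edgeR 4.0.16 (R 4.3.3; filterByExpr, TMM, quasi-likelihood test, 2 stages, no covariate), with Benjamini-Hochberg adjustment over 8936 genes. The SE is the log2 fold change over the square root of F. The study tested with sleuth, which uses resampled counts that were not used here. Alternatives were DESeq2 1.42.0, other scalings and filters, limma 3.58.1 on log2(TPM + 0.5) or log2(TPM + 0.1), glmTreat, a replicate block and leaving out each library. The code was tested on simulated data.

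Named genes are, per subunit, the 5 largest rises and falls among called genes without overlap of stages, the 3 highest and 3 lowest in TPM, the 3 least changed, any beyond 1 log2 unit, and mRpL12, mRpL4, mRpS5, mRpS29, tko and bonsai; other names were added for their role or after their values were seen. Members and lists were chosen with earlier results of these data known. No sequences are shown.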

Additional observations from a re-analysis of the deposited data

How the results depend on the processing

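No member called above was called in the other direction under any alternative, but the counts moved. DESeq2 called 17 mRpL and 7 mRpS genes lower, against 27 and 12, with an mRpL median of -0.16; its shares (36.2% and 26.9%) stand beside 31.7% of all genes. Under total library size the medians were -0.31 (mRpL) and -0.26 (mRpS), and under upper quartile scaling -0.29 and -0.24. Both scalings left 1 mRpL and 0 mRpS genes higher. With a mean of at least 100 counts, mRpL42 was not tested, which left 0 members beyond 1 log2 unit, and the mRpL median was -0.16. Leaving out 1 library at a time gave 19 to 25 mRpL and 9 to 12 mRpS genes lower, while 31.9 to 34.0% of all genes were lower. Without wL3 replicate 1, 40.4% of mRpL and 34.6% of mRpS genes were lower against 33.2% of all genes. The mRpS share was then near the background, and 28 members were lower in all. Higher mRpS genes numbered 1 to 2, the extra gene (mRpS21, named after its values were seen) appearing without wL3 replicate 1. In log2 CPM that library correlated with wL3 replicates 2 and 3 at 0.983 and 0.985, against 0.995 between those. Signs of named genes changed only where they were not called. mRpL17 was 0.03 with DESeq2 and with the mean of at least 100 counts, and mRpL24 and mRpS17 were 0.00 with both. Under total library size and upper quartile scaling, mRpL33 was -0.06 and -0.04, mRpL50 -0.08 and -0.06, and mRpS14 -0.10 and -0.08. mRpS14 was -0.01 with both limma fits. With 1 library left out, mRpL17 ran from -0.09 to 0.05, mRpL24 from -0.09 to 0.02, mRpS14 from -0.01 to 0.08 and mRpS2 from -0.10 to 0.00. The cause was not tested. The labels do not say whether replicate numbers pair the libraries. Deviations from the stage means correlated at -0.00507, 0.146 and -0.256 for numbers 1 to 3, and from -0.239 to 0.286 between unlike numbers. With libraries so few these values cannot decide it. With the replicate block 26 mRpL and 12 mRpS genes were lower and 4 members higher, against 34.3% of all genes lower and 29.1% higher. All members but mRpL42 had at least 187 counts in every library.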
